A study of Homo sapiens with 36 samples.

Results

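To compare where the Jun-family proteins Jun, JunB and JunD sat in B2B cells, their ChIP-seq peak lists were set against each other within this 1 line. The members were the peaks of chromosomes 1 to 22, X and Y, apart from those in 1-Mb bins that hold no annotated transcription start site (186 of 3102 bins). This left 44945 Jun, 8363 JunB and 6745 JunD peaks, together 60053 of the 476964 peaks in the series. Peaks of the 3 proteins that overlapped by at least 1 bp were merged into 46099 regions, and each region was put in 1 of 7 classes by the proteins present. A region with all 3 proteins is called a triple region below, and one with Jun plus a single partner a Jun-JunB or Jun-JunD region.

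The series profiled A549, a lung adenocarcinoma line, and BEAS-2B (B2B), a bronchial epithelial line immortalized with SV40 that the study took as its non-cancerous reference. All groups used here are B2B cells from a single line kept in serum-containing medium, with no treatment and no genetic change other than the immortalization named, and they differ only in the target that was precipitated. Besides Jun, JunB and JunD these targets were H3K4me3, H3K27ac, Med1, RNA polymerase II (pol II), CTCF and Rad21, with 2 replicates each. The authors merged replicates before calling peaks, so each target had 1 list, no replicate error could be computed and the read depth behind each list is unknown.

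Of 10 epithelial marker genes, 6 carried an H3K4me3 peak within 1 kb of a start site, among them the adhesion genes EPCAM and CDH1 and the keratins KRT8, KRT18 and KRT7. The basal keratins KRT5 and KRT14 and the basal regulator TP63 carried none, nor did KRT19. All 5 mesenchymal markers, VIM, CDH2, FN1, ZEB1 and TWIST1, carried one, and none of 10 markers of blood, endothelial, liver, islet, neural crest and muscle cells did. The label as an epithelial line thus held for 6 of the 10 markers by H3K4me3, and for 5 by H3K27ac and by pol II. NKX2-1 carried H3K4me3 without the other 2. Mesenchymal start sites were marked beside them, all 5 by H3K27ac and 3 by pol II, which was missing at ZEB1 and TWIST1.

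AP-1 is a dimer of basic leucine zipper proteins, made of 2 Jun proteins or of a Jun and a Fos protein. It binds the short palindrome TGACTCA, and less often the longer TGACGTCA, and sits largely at enhancers, where growth factor and stress signals change its amount and makeup. Jun is the founding member and a strong activator, JunB is often described as a weaker activator that can oppose Jun, and JunD is present in most resting cells. The antibody, and not the dimer partner, defines each list, so Fos proteins are not seen in these data.

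The sequences under the strongest regions of each class differed in kind, and are shown because later counts rest on the same letters. Each is the 101-bp window centred on the strongest summit, from hg38, plus strand, with TGACTCA (reverse complement TGAGTCA), the longer site TGACGTCA, the AT run ATATATA and the letters GAATGGA in capitals on either strand. The regions were taken by rank of summed fold enrichment, from the strongest of each class except JunD alone, where those of rank 2 and 3 are shown. The further triple, JunB-alone and JunD-alone regions were added after their values were seen.
Triple, intron of PCCA, chr13:100392868-100392968: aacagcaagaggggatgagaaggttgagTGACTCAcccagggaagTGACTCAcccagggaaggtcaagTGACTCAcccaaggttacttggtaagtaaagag
Triple, exon of the AFG3L1P pseudogene, chr16:89995341-89995441: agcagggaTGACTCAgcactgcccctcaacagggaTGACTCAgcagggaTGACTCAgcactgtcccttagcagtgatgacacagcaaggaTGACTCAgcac
Triple, intron of HPSE2, chr10:98460960-98461060: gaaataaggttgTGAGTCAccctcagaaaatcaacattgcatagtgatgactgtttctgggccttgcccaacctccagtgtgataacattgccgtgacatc
Jun-JunB, intergenic, 14.2 kb from the PIK3C3 start, chr18:41940631-41940731: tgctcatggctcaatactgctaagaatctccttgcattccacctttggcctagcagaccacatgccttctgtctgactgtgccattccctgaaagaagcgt
Jun-JunD, intergenic, chr3:95302218-95302318: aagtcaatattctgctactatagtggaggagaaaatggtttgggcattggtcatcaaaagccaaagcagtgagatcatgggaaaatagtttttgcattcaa
Jun alone, intron of C1D, chr2:68045478-68045578: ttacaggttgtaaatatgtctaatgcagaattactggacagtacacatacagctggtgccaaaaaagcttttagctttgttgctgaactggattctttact
JunB alone, intron of LRCH2, chrX:115125474-115125574: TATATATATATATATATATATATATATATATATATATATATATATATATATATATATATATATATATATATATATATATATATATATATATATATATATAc
JunB alone, intron of CAMKMT, chr2:44409085-44409185: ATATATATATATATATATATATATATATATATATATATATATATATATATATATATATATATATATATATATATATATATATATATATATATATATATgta
JunB alone, intergenic, chr21:17085168-17085268: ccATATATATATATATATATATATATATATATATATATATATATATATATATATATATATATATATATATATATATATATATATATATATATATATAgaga
JunB-JunD, intron of the CEACAMP5 pseudogene, chr19:42663378-42663478: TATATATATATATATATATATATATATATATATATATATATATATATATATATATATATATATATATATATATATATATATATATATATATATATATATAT
JunD alone, intergenic, chr13:18049205-18049305: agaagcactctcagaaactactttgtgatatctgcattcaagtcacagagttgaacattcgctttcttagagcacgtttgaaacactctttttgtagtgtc
JunD alone, intergenic, chr6:58620226-58620326: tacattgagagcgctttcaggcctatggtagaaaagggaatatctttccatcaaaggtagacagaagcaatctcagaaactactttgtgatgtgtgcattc

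The triple region in PCCA, which encodes a subunit of propionyl-CoA carboxylase, reached fold enrichments of 79.9 for Jun, 28.7 for JunB and 31.3 for JunD, with 3 copies of TGACTCA in its 820 bp. The one over AFG3L1P had values of 79.6, 33.8 and 24.0 and held 44 copies of the motif in 1786 bp, a tandem repeat. Reads from such near-identical copies may not be placed with certainty. The region in HPSE2 held 1 copy under values of 85, 28.4 and 21.2. None of the 3 strongest Jun-alone, Jun-JunB or Jun-JunD regions held the motif. The strongest JunB-alone windows were almost pure AT dinucleotide repeats. JunB reached 51.0 on the X chromosome, and 98.5 in the JunB-JunD region within CEACAMP5 on chromosome 19, where JunD reached 4.94. The JunD-alone windows on chromosomes 13 and 6 shared a run of 21 bp, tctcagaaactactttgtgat, although no copy of AP-1 motif letters lay in either.

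Outside the bins with no start site, most JunB and JunD peaks overlapped a Jun peak. Jun-alone regions numbered 35732 (77.5% of regions, 95% interval 77.1 to 77.9) and triple regions 4392 (9.53%, 9.26 to 9.80). There were 3173 Jun-JunB regions (6.88%) and 1609 Jun-JunD regions (3.49%), against 607 with JunB alone (1.32%), 563 with JunD alone (1.22%) and 23 with JunB and JunD (0.0499%). Of the JunB peaks, 92.4% (91.8 to 93.0) overlapped a Jun peak, and 91.3% (90.6 to 91.9) of the JunD peaks did. In the other direction 16.9% of Jun peaks overlapped JunB and 13.4% overlapped JunD. JunD peaks overlapped JunB in 66.5% (65.4 to 67.6). With the bins that hold no start site included, 90.5% of JunB but 72.7% of JunD peaks overlapped a Jun peak. Those bins held 21.5% of the JunD and 2.34% of the JunB peaks on chromosomes 1 to 22, X and Y. The intervals given here and below are Wilson intervals for shares and Newcombe intervals for differences. They cover counting error only.

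**Figure D1:**
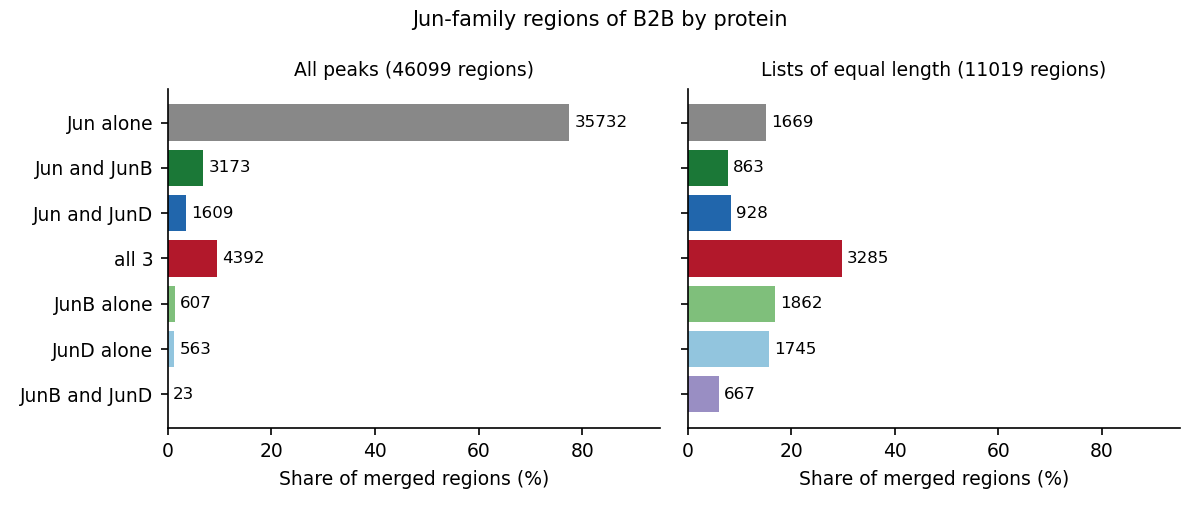
Share of merged regions in each class of Jun-family proteins (horizontal axis, %), with the number of regions at each bar, for all peaks on the left and for the 6745 strongest peaks of each list on the right. Jun alone took 77.5% of regions with all peaks and 15.1% with lists of equal length, while triple regions went from 9.53% to 29.8%.

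The size of the Jun-alone class followed the length of the Jun list. When each list was limited to its 6745 peaks with the highest −log10 p, Jun-alone regions numbered 1669 (15.1%), JunB-alone regions 1862 and JunD-alone regions 1745, while triple regions numbered 3285 (29.8%, 29.0 to 30.7). With equal lists 62.2% of JunB peaks and 64.2% of JunD peaks overlapped a Jun peak. A region of the Jun-alone class is therefore one where JunB and JunD were not listed, which does not show that they were absent.

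Within triple regions the 3 summits lay almost on top of each other. These regions are joined by overlap of peaks with median widths of 268 bp for Jun, 237 bp for JunB and 167 bp for JunD. Short distances therefore follow in part from the definition, and no expected distance was computed. The median distance was 20 bp between Jun and JunB, 20 bp between Jun and JunD, and 25 bp between JunB and JunD. Within 50 bp of each other lay 85.2% (84.2 to 86.3) of the Jun and JunB summits, 86.3% (85.3 to 87.3) of the Jun and JunD summits, and 79.7% (78.5 to 80.9) of the JunB and JunD summits. Where an AP-1 motif lay within 100 bp of a summit, its centre was a median of 14 bp from the Jun summit, 17 bp from the JunB summit and 15 bp from the JunD summit. The motif was within 100 bp in 70.4%, 70.8% and 70.7% of triple regions for the 3 summits in that order.

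Triple regions were the strongest Jun regions. The median Jun fold enrichment, the deposited ratio of the pileup at a summit to the local background, was 7.58 in Jun-alone regions, 15.2 with JunB, 19.9 with JunD and 29.1 in triple regions. JunB reached a median of 5.53 with Jun and 7.81 in triple regions, and JunD 5.39 and 6.47. JunB-alone regions, at 7.47, were close to triple regions in JunB enrichment, whereas JunD-alone regions had a median of only 3.26. Median widths were 243 bp for Jun alone, 369 bp for Jun-JunB, 406 bp for Jun-JunD and 504 bp for triple regions.

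**Figure D2:**
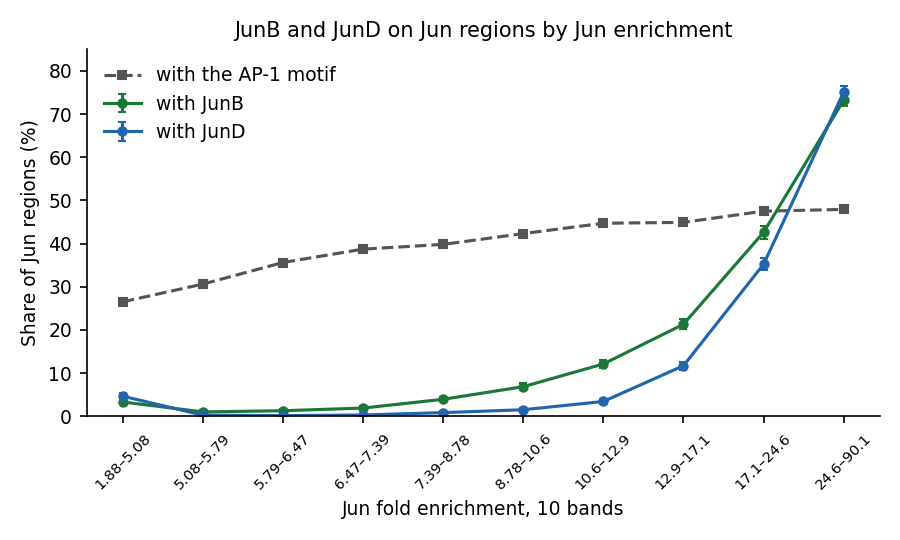
Share of Jun regions that also held JunB, JunD or the AP-1 motif (vertical axis, %) in 10 bands of Jun fold enrichment (horizontal axis); bars are 95% Wilson intervals. JunB rose to 73.2% and JunD to 75.1% in the top band, while the share with the motif stayed between 26.5% and 47.9%.

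In the plot of partner shares over 10 bands of Jun enrichment, JunB was present in 1.00% (0.748 to 1.34) of Jun regions in the second band, 21.3% in the eighth and 73.2% (71.9 to 74.5) in the tenth, at Jun enrichments of 24.6 to 90.1. JunD lagged behind JunB in the middle bands, with 11.7% (10.8 to 12.6) in the eighth and 35.2% against 42.6% in the ninth. In the tenth band it was level with JunB at 75.1% (73.8 to 76.4). Triple regions made up 63.5% of that band and Jun alone 15.1%. The weakest band was an exception, with 91 triple regions at a median Jun enrichment of 3.20, of which 74.7% had no protein-coding start within 500 kb and 2.2% held the AP-1 motif. Of these 91 regions 96.7% overlapped a pol II peak and 1.10% an H3K27ac peak.

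To place the classes relative to genes, each region was measured to the nearest annotated start site of any transcript. Within 1 kb of a start lay 13.5% of all regions, 13.9% (13.6 to 14.3) of Jun-alone regions and 12.7% (11.7 to 13.7) of triple regions, a difference of -1.25 percentage points (-2.27 to -0.172) for triple minus Jun alone. This difference turned to 7.06 points when averaged over 5 bands of Jun enrichment, and to 3.59 without the bands that held under 20 regions of a class. The pairs differed more. Jun-JunB regions were near a start in 16% (14.8 to 17.3) and Jun-JunD regions in 8.39% (7.13 to 9.85), a difference of 7.62 points (5.71 to 9.44). It fell to 3.15 points as a mean over 5 bands of GC content and rose to 13.1 points over 5 bands of Jun enrichment. The median distance to a start was 9.21 kb for Jun alone, 8.69 kb for Jun-JunB, 13.3 kb for Jun-JunD and 10.1 kb for triple regions. Introns held 59.5% of Jun-alone and 56.3% of triple regions, and intergenic sequence 28.5% and 29.9%.

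JunB-alone and JunD-alone regions lay elsewhere. JunB-alone regions were near a start in 6.26% (4.59 to 8.48), and 55.4% were intronic. JunD-alone regions were near a start in 2.31% (1.35 to 3.91), with a median distance of 105.0 kb, and 92.7% were intergenic. No protein-coding start lay within 500 kb of 57.2% of JunD-alone regions, against 17.1% of JunB-alone and 5.00% of Jun-alone regions.

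**Figure D3:**
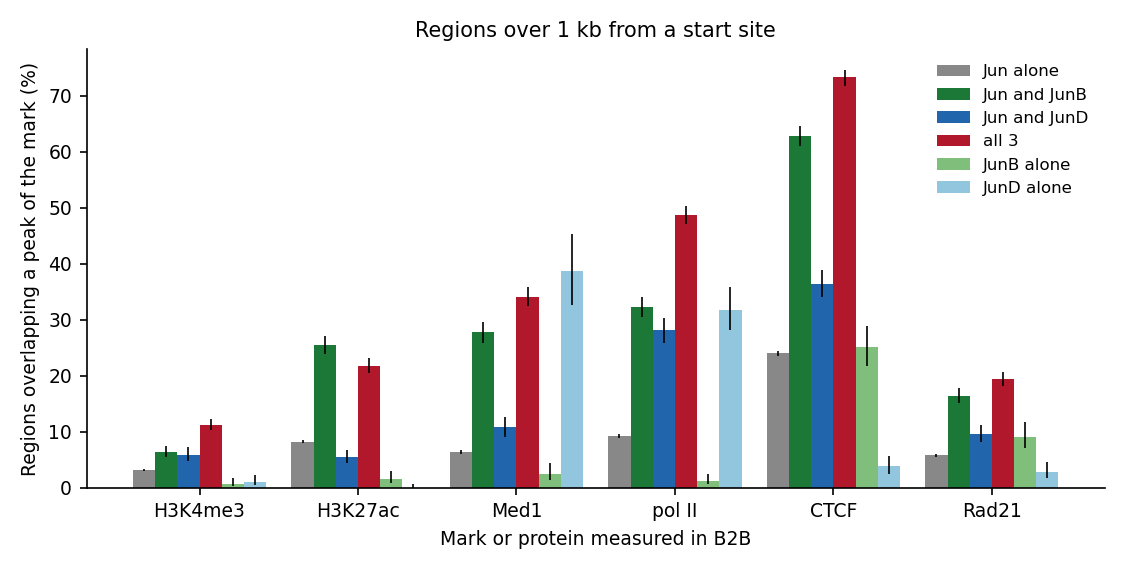
Share of regions more than 1 kb from a start site that overlapped a peak of each mark (vertical axis, %), by class; bars are 95% Wilson intervals and Med1 is on chromosomes 1 to 14. Jun-JunB and triple regions held H3K27ac in 25.5% and 21.8%, Jun-JunD regions in 5.50%, and JunD-alone regions held pol II in 31.8% but no H3K27ac.

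Away from start sites, the enhancer mark H3K27ac separated the partners. Among regions more than 1 kb from a start, 10.4% overlapped an H3K27ac peak. The share was 8.26% (7.96 to 8.57) for Jun alone, 25.5% (23.9 to 27.2) for Jun-JunB, 5.50% (4.44 to 6.78) for Jun-JunD and 21.8% (20.5 to 23.1) for triple regions. Triple exceeded Jun-alone regions by 13.5 points (12.2 to 14.9), and Jun-JunB exceeded Jun-JunD regions by 20 points (18.0 to 22). Jun-JunD minus Jun-alone regions gave -2.76 points (-3.86 to -1.45), and triple minus Jun-JunB regions -3.72 points (-5.84 to -1.62). Within bands of GC content the first of these smaller differences changed direction in some bands, and the second in all 5, as given below. The pairs also differed within 1 kb of starts, where 55.5% (51.2 to 59.8) of Jun-JunB but 13.3% (8.60 to 20.1) of Jun-JunD regions overlapped H3K27ac.

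GC content moved with the gap between the pairs. Over the 1 kb around the summit the median GC content was 45.6% for Jun-JunB regions, 38.7% for Jun-JunD, 41.7% for Jun alone and 42.4% for triple regions. Within bands of GC content the pairs did not differ in H3K27ac beyond counting error below 48.1% GC. From 40.3 to 43.6% GC, 6.83% of Jun-JunB and 6.85% of Jun-JunD regions overlapped H3K27ac, a difference of -0.0148 points (-3.95 to 3.36), and from 43.7 to 48.0% the values were 18.6% and 17.1%, a difference of 1.56 points (-4.71 to 6.96). Above that, 58.3% of 856 Jun-JunB and 32.8% of 58 Jun-JunD regions overlapped it, a difference of 25.5 points (12.3 to 36.7). Triple regions held more H3K27ac than Jun-JunB regions in all 5 bands. These shares count any overlap with the whole region, and triple regions were wider, at a median of 504 bp against 369 bp. Other readings, given below without GC bands, had the opposite order. The share of triple regions was 11.7% (9.70 to 14) from 40.3 to 43.6% GC and 30.3% (27.4 to 33.4) from 43.7 to 48.0%. In both bands its interval was separate from that of Jun-JunB regions. Jun-JunD regions lay above Jun alone in these same middle bands, which held 2.11% (1.78 to 2.49) and 7.30% (6.66 to 7.99) of Jun-alone regions with the mark, against 6.85% (4.48 to 10.3) and 17.1% (12.6 to 22.7). The mean over 5 GC bands was 5.86 points for the pairs, but 13 points for triple minus Jun alone. JunB itself followed GC content, being present in 9.63% (9.04 to 10.3) of Jun regions in the lowest band and 21.2% (20.4 to 22.1) in the highest, while JunD went from 13.4% (12.7 to 14.1) to 9.32% (8.74 to 9.93). The part of base composition in these differences was not tested further.

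**Figure D4:**
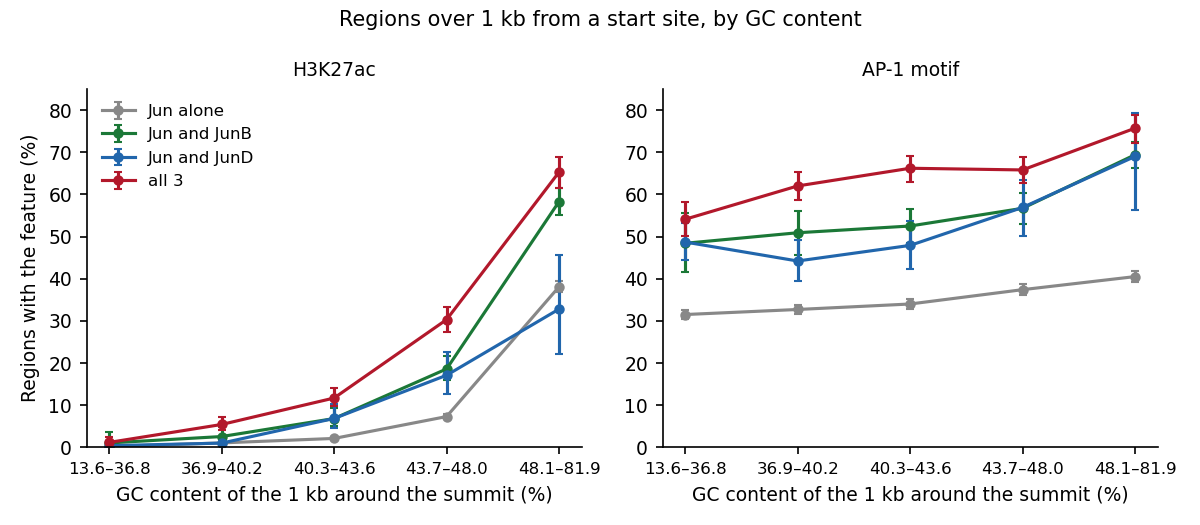
Share of regions more than 1 kb from a start site with an H3K27ac peak (left) or the AP-1 motif (right) (vertical axes, %) in 5 bands of GC content (horizontal axes); bars are 95% Wilson intervals. In the highest band H3K27ac reached 65.3% of triple, 58.3% of Jun-JunB, 38.1% of Jun-alone and 32.8% of 58 Jun-JunD regions, while in the fourth band Jun-JunD regions, at 17.1%, lay above Jun alone, at 7.30%.

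The acetylation values depended on how a region was read. With lists of equal length, 25.8% (23.6 to 28.2) of Jun-alone and 25.6% (24.1 to 27.3) of triple regions overlapped H3K27ac, so that the difference was -0.162 points (-2.99 to 2.60). When the strongest summit itself had to lie inside the H3K27ac peak, the shares fell to 3.27% and 3.62%, and the difference to 0.357 points (-0.227 to 1.02). Jun-JunB regions remained above Jun-JunD regions in both readings, at 43.1% against 11% with equal lists and at 9.46% (8.40 to 10.6) against 0.271% (0.106 to 0.696) at the summit. In both they also lay above triple regions, at 25.6% and 3.62%. Neither reading was split by GC content. Among the regions with a Jun enrichment of 17.1 or more, H3K27ac was on 22.6% (20.2 to 25.1) of Jun-JunB, 21.6% (20.3 to 23) of triple, 10.5% (9.35 to 11.8) of Jun-alone and 6.86% (5.42 to 8.65) of Jun-JunD regions.

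Med1, a subunit of the Mediator complex that links enhancers to pol II, was read on chromosomes 1 to 14, which its list covers in full. It overlapped 10.9% of regions away from starts. Triple regions held it in 34.1% (32.4 to 35.8), Jun-JunB in 27.8% (25.8 to 29.7), Jun-JunD in 10.8% (9.13 to 12.7) and Jun alone in 6.43% (6.13 to 6.75). H3K27ac and Med1 together were found on 14.6% of triple and 16% of Jun-JunB regions, against 2.88% of Jun-JunD and 3.76% of Jun-alone regions. The difference of triple minus Jun-alone regions in Med1 was 27.6 points (26.0 to 29.4), and fell to 14.5 points with lists of equal length. Jun-JunB minus Jun-JunD regions gave 17.0 points (14.3 to 19.6), and 5.12 points as a mean over GC bands. The order of Jun-JunD and Jun alone changed with Jun enrichment. Below 5.79 Med1 was on 65.4% (51.8 to 76.8) of Jun-JunD and 8.36% (7.65 to 9.14) of Jun-alone regions. From 5.79 to 7.39 the values were 0% (0 to 27.8) and 4.30%, and from 7.39 to 10.6 they were 0% (0 to 5.75) and 5.46%. From 10.6 to 17.1 they were 9.88% (6.78 to 14.2) and 6.64% (5.99 to 7.36). At enrichments of 17.1 or more they were 8.49% (6.75 to 10.6) for Jun-JunD and 9.81% (8.60 to 11.2) for Jun alone.

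Pol II was most frequent in triple regions, and over all regions more frequent with either partner than with Jun alone. It overlapped 15.5% of regions away from starts, namely 48.8% (47.2 to 50.3) of triple, 32.3% (30.5 to 34.1) of Jun-JunB, 28.1% (25.9 to 30.4) of Jun-JunD and 9.27% (8.95 to 9.60) of Jun-alone regions. Triple minus Jun-alone regions gave 39.5 points (37.9 to 41.1), and 14 points with lists of equal length. The pairs differed by 4.18 points (1.26 to 7.05), which turned to -1.33 points as a mean over GC bands and to -2.02 points over bands of Jun enrichment with at least 20 regions. That second value rests on the band of Jun enrichment below 5.79, where 84.7% of 124 Jun-JunD and 40.7% of 54 Jun-JunB regions held pol II. At Jun enrichments of 17.1 or more pol II was on 41.2% (38.3 to 44.1) of Jun-JunB, 25.6% (23 to 28.5) of Jun-JunD and 24.4% (22.7 to 26.1) of Jun-alone regions, so that Jun-JunD was there not set apart from Jun alone. H3K4me3, the mark of active start sites, overlapped 4.24% of these regions, with 11.2% (10.3 to 12.3) of triple, 6.42% of Jun-JunB, 5.90% of Jun-JunD and 3.21% of Jun-alone regions.

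CTCF, which binds insulators and stops cohesin, was the list that overlapped Jun-family regions most often. It was also the longest of the mark lists, with 61225 peaks against 20605 for Med1 to 40316 for H3K27ac. The order between marks can therefore follow list length. It overlapped 31.6% of regions away from starts, 73.3% (71.8 to 74.6) of triple, 62.9% (61.1 to 64.7) of Jun-JunB, 36.4% (34.0 to 38.9) of Jun-JunD and 24.1% (23.6 to 24.5) of Jun-alone regions. The difference of triple minus Jun-alone regions was 49.2 points (47.7 to 50.7), and 21.7 points with lists of equal length. Jun-JunB minus Jun-JunD regions gave 26.5 points (23.4 to 29.5), and 13.6 points as a mean over GC bands. At Jun enrichments of 17.1 or more CTCF was on 40.7% (37.6 to 43.9) of Jun-JunD and 43.1% (41.2 to 45.1) of Jun-alone regions, with intervals that overlap. Rad21, a cohesin subunit, overlapped 8.01% of regions, 19.4% (18.2 to 20.7) of triple and 5.85% (5.59 to 6.11) of Jun-alone regions. Most of the CTCF overlap came without Rad21, as 55.8% (54.2 to 57.4) of triple regions held CTCF without Rad21 and 17.5% (16.3 to 18.7) held both. None of the 6 marks was found on 17.4% of triple, 27.4% of Jun-JunB, 48.3% of Jun-JunD and 69.5% of Jun-alone regions, again on chromosomes 1 to 14.

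The CTCF peaks at these regions differed from the rest of the CTCF list. The CTCF motif was counted as an exact match to a short pattern of letters on either strand, with no mismatch allowed. Of the 3569 CTCF peaks that overlapped triple regions, 1.37% (1.04 to 1.81) held the CTCF motif within 50 bp of the CTCF summit, against 16% (15.7 to 16.3) of the 45656 CTCF peaks on no Jun-family region. The AP-1 motif lay there in 31.4% (29.9 to 32.9) against 1.33% (1.23 to 1.44), and Rad21 overlapped 22.1% against 41.4%. The contrast in the AP-1 motif follows in part from the grouping, since triple regions often hold that motif. For CTCF peaks on Jun-alone regions the CTCF motif was found in 3.24% and the AP-1 motif in 10.6%. The median CTCF fold enrichment was 8.14 on triple regions, 6.58 on Jun-alone regions and 9.95 elsewhere. Even on no Jun-family region only 16% of CTCF peaks matched the CTCF pattern, so a peak without a match may still hold a CTCF site. These shares compare groups of peaks and do not count CTCF sites. Whether CTCF itself was precipitated at the peaks without a match was not tested, nor was the specificity of this list. The CTCF shares above are therefore overlaps with the list and not measures of bound CTCF.

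To read the sequence preference of each class, motifs were searched on both strands within 50 bp of the strongest summit. TGACTCA or TGAGTCA lay in 39.0% of all windows, in 1.72% of windows 2 kb downstream and in 1.27% of windows centred on the starts of protein-coding genes. It was present in 65.5% (64.0 to 66.9) of triple, 59.8% (58.1 to 61.5) of Jun-JunB, 49.4% (47.0 to 51.9) of Jun-JunD and 34.6% (34.1 to 35.1) of Jun-alone regions. Triple exceeded Jun-alone regions by 30.8 points (29.3 to 32.3), and Jun-JunB exceeded Jun-JunD regions by 10.4 points (7.45 to 13.4). The second difference fell to 2.32 points as a mean over GC bands. At Jun enrichments of 17.1 or more the order of the pairs was the opposite, with intervals that overlap. There the motif lay in 44.3% (41.6 to 47.1) of Jun-JunB and 48.5% (45.5 to 51.6) of Jun-JunD regions. At least 2 copies lay in 20.7% of triple, 11.7% of Jun-JunB, 11.1% of Jun-JunD and 4.04% of Jun-alone regions, but per kb of region the numbers were closer, at 1.81, 2.01, 1.55 and 1.71 copies.

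At Jun enrichments of 17.1 or more fewer regions held the motif than in the range below it, in all 4 classes with Jun. Among Jun-alone regions the motif share was 37.8% (36.7 to 39.0) at Jun enrichments of 10.6 to 17.1 and 23.5% (21.9 to 25.1) at 17.1 or more. Between the same ranges it went from 80.7% (76.2 to 84.5) to 65.6% (64.1 to 67.1) in triple, from 66.4% (61.3 to 71.1) to 48.5% (45.5 to 51.6) in Jun-JunD and from 70.5% (67.8 to 73.0) to 44.3% (41.6 to 47.1) in Jun-JunB regions. The region in C1D printed above, with a Jun enrichment of 57.1 and no motif, was the highest of these Jun-alone regions.

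The longer site TGACGTCA was rare, in 1.07% of Jun-alone and 0.342% (0.207 to 0.563) of triple windows, against 0.0456% of windows 2 kb downstream and 1.21% at gene starts. The letters TGAATCA lay in 13.9% (12.3 to 15.7) of Jun-JunD, 12.4% (11.5 to 13.4) of triple, 9.58% of Jun-alone and 8.98% (8.04 to 10.0) of Jun-JunB windows. Jun-JunB minus Jun-JunD was -4.94 points (-6.95 to -3.02), opposite in direction to TGACTCA. The letters of TEAD sites, GGAATG, were most frequent in JunD-alone windows, at 44.2% (40.2 to 48.4). Those windows often held GAATGGA, as given below, whose letters can overlap GGAATG. In the classes with Jun, GGAATG lay in 21.1% of triple, 20.5% of Jun-JunB, 20.3% of Jun-JunD and 17.8% of Jun-alone windows against 6.35% downstream. TGTGGT, the letters of RUNX sites, lay in between 9.64% and 12.6% of the windows of these 4 classes.

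The base just outside the motif also differed by class, in windows that held exactly 1 copy. Read outwards on each strand, the base before TGA was A in 50.8% of positions in Jun-JunD regions, 47.6% in triple, 42.5% in Jun-alone and 39.0% in Jun-JunB regions. G stood there in 37.7% of positions in Jun-JunB and 27% in Jun-JunD regions. Both sides were A in 25.2% (22.2 to 28.5) of 729 Jun-JunD windows and 13.9% (12.4 to 15.6) of 1769 Jun-JunB windows, and both were G in 6.31% (4.76 to 8.31) and 14.4% (12.9 to 16.1). The letters TGAATCA and these flanks were chosen after the sequences were seen. The GC content of the classes, given above, differed in the same direction as these flanks, and its part in them was not tested.

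JunB-alone and JunD-alone regions held almost no AP-1 motif and carried other letters, ATATATA in the former and GAATGGA in the latter, both chosen after the sequences were seen. TGACTCA lay in 3.29% (2.14 to 5.03) of JunB-alone, 1.78% (0.968 to 3.24) of JunD-alone and 0 of 23 JunB-JunD windows. ATATATA lay in 80.2% (76.9 to 83.2) of JunB-alone windows, as in the windows of LRCH2 and CAMKMT above, against 0.862% of Jun-alone, 0.433% of triple and 2.49% of downstream windows. These regions were scattered over 546 bins of 1 Mb, with at most 3 in any bin. Of the JunB-alone regions away from starts, 1.58% (0.834 to 2.98) overlapped H3K27ac and 1.23% pol II, but 25.1% (21.7 to 28.9) overlapped CTCF, close to the 24.1% of Jun-alone regions.

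GAATGGA lay in 50.6% (46.5 to 54.7) of JunD-alone windows, against 2.03% of Jun-alone and 2.55% of downstream windows. Neither of the JunD-alone windows printed above held these letters. JunD-alone regions were packed into 82 bins, with 114 regions (20.2%) at 56 to 57 Mb of chromosome Y, and 81 (14.4%) at 28 to 29 Mb of chromosome 20. On chromosome Y 53.6% (44.4 to 62.5) of the 112 Jun regions held JunD, against between 7.01% and 16.9% on the other chromosomes. Away from starts, pol II overlapped 31.8% (28.1 to 35.8) of JunD-alone regions and Med1 38.7% (32.6 to 45.3) of the 222 on chromosomes 1 to 14, the highest Med1 share of the classes with more than 23 regions. H3K27ac overlapped 0 of 550, which at a limit of 3 counts allows a share of up to 0.545%. How reads were placed among the copies of such repeats cannot be told from the lists.

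To connect the classes with genes, regions were counted within 100 kb of the start of each of 20033 protein-coding genes. A triple region lay within 100 kb of 4956 genes (24.7%, 24.1 to 25.3), and 2835 genes had no Jun-family region there. Within 1 kb of a start site, 3299 genes (16.5%) held Jun, 631 (3.15%) JunB and 371 (1.85%) JunD. SMAD3, which carries TGF-beta signals to the nucleus, had 29 regions, of which 18 held Jun alone, 4 were Jun-JunB, 1 was Jun-JunD and 6 were triple. MICAL2, an enzyme that oxidizes actin, had 6 triple regions among 20, and CDK6, a kinase of the G1 phase, 6 among 18. FAM50B had 6 among 17. SMURF2, a ubiquitin ligase of the TGF-beta pathway, had 5 triple and 23 Jun-alone regions and no pair. DDX47, ZNF462 and ZSWIM6 had 5 triple regions each, as did MRPS27 and PTCD2, which start next to each other and share their 21 regions.

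Among genes with no triple region, the most Jun-alone regions were found near STK17A, RPL26L1, PACSIN2 and TPM1, with 18 each, and GADD45A with 17. STK17A is a kinase linked to cell death, PACSIN2 acts in endocytosis, TPM1 encodes tropomyosin and GADD45A is induced by DNA damage. Each of these 5 genes also had between 1 and 3 Jun-JunB regions, and STK17A was the only one of them with a Jun-JunD region.

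**Figure D5:**
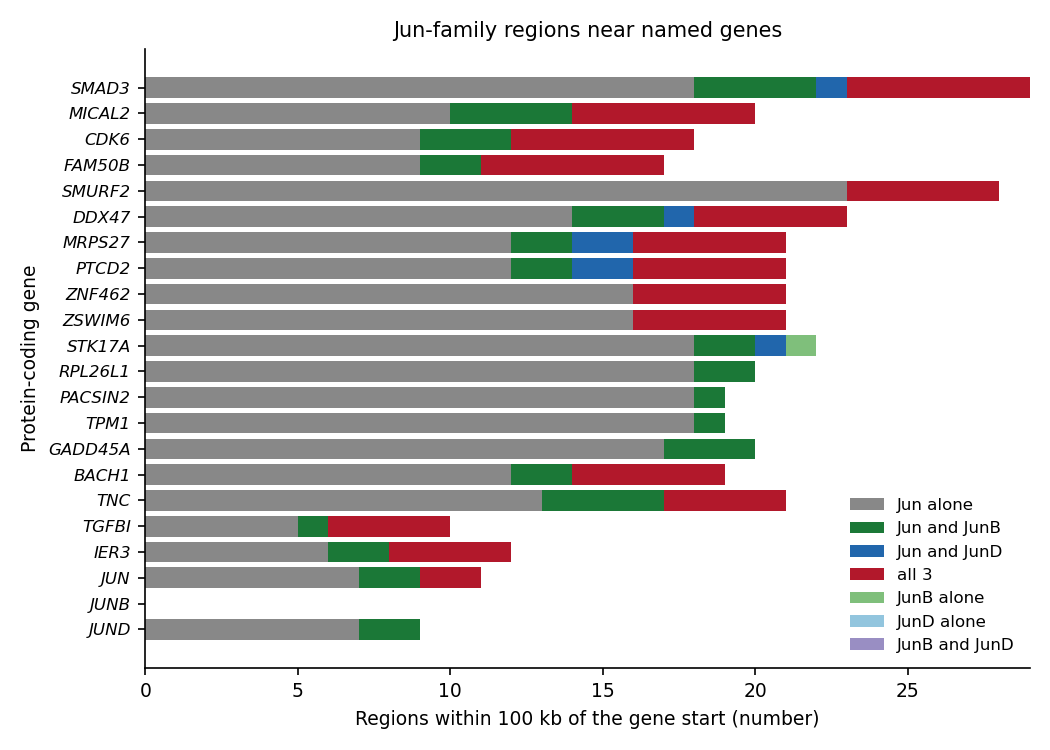
Number of Jun-family regions within 100 kb of the gene start (horizontal axis) for named protein-coding genes (vertical axis), with the classes stacked by colour. SMAD3 had 29 regions including 6 triple ones, STK17A to GADD45A had none of these, and JUNB had no region.

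The genes of the AP-1 family were bound unequally. JUN had 11 regions within 100 kb, 7 with Jun alone, 2 Jun-JunB and 2 triple. The stronger triple region of JUN, chr1:58755270-58755928 (hg38), lay 28.1 kb from the start with fold enrichments of 36.5 for Jun, 15.3 for JunB and 9.39 for JunD. The other, chr1:58848722-58849362, lay 64.7 kb away with values of 20, 7.1 and 4.02. At the JUN start itself Jun alone was listed, at 9.71. JUND had 9 regions, 7 with Jun alone and 2 Jun-JunB, and Jun alone at its start with 4.74. JUNB had no region of any class. JunD was thus listed near JUN only among the 3 genes. Of 18 Jun, Fos, ATF and Maf genes, 7 had a triple region, led by the repressor BACH1 with 5 of its 19 regions and ATF3 with 2 of 16.

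Lists of genes of known roles were compared with the 24.7% of all protein-coding genes that had a triple region within 100 kb. Of 16 adhesion and matrix genes 12 had one (75.0%), led by the matrix genes TNC, with 4 of 21 regions, and TGFBI, with 4 of 10, and by the integrin ITGB6 with 3 of 16. TNC and TGFBI also held all 3 proteins within 1 kb of a start. Of 16 YAP-TEAD target genes 10 had one (62.5%), with 3 each at CRIM1, CCN1 and AMOTL2. MAPK feedback genes had one in 6 of 13 cases (46.2%), with 4 at IER3, 3 at PHLDA1 and 1 at the phosphatase gene DUSP5. Mesenchymal genes had one in 5 of 11 (45.5%), SPARC holding 2, and S100A4 and COL1A1 1 each.

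Genes often cited as AP-1 targets stood near the background, with a triple region at 4 of 16 (25%). Among these were DUSP1 and HBEGF with 3 each and PLAU with 1, while the collagenase gene MMP1 and its neighbours MMP3 and MMP10 had 2 Jun-JunD regions each and no JunB. The windows of MMP1, MMP3 and MMP10 overlap, so that the same regions can count for each of them. Within 1 kb of a start Jun lay in 7 of these 16 genes and JunB and JunD in 0, which at the 3.15% and 1.85% of all genes given above cannot be set apart from the background. Of 14 cytokine and NF-kB genes 5 had a triple region (35.7%), with 2 each at CXCL8 and CCL20 and 1 at LIF. Of 10 EGF receptor and ligand genes 4 did (40.0%), EGFR with 3 of 16 regions, and EPGN and EREG with 1 each. The windows of EPGN and EREG overlap, so that the same region can count for both. Of 17 airway epithelial genes 5 did (29.4%), and KRT7 had 5 Jun-JunB regions and 1 triple among 15. The neighbours KRT8 and KRT18 shared 11 regions, 1 of them triple, and NKX2-1, SOX2, FOXA2 and ESRP1 had none.

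Lists unrelated to AP-1 were above the background as well. Of 18 cytosolic ribosomal protein genes 6 had a triple region (33.3%), with 3 at RPS14 and 2 each at RPLP0 and RPL3. Of 10 markers of other cell types 4 did (40.0%), PTPRC with 2, and PECAM1 and CDH5 with 1 each, although none had an H3K4me3, H3K27ac or pol II peak at its start. With so few genes in each list, a share near 40.0% cannot be set apart from the background by these counts, and no list was tested. The median number of regions of any class was 9 for YAP-TEAD targets, 8.50 for adhesion and matrix genes and for classic AP-1 targets, 5.00 for airway epithelial genes, 4 for ribosomal protein genes, 2 for markers of other cell types and 3 for all protein-coding genes.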

How the data were processed

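Chromatin immunoprecipitation and sequencing (ChIP-seq) was carried out by the authors in A549 and B2B cells (36 samples, 2 replicates per target). Of the lists, the 3 Jun-family and 6 mark lists of B2B were used, and A549 lists and input samples were not used here. The authors aligned reads to hg38 with Bowtie2 (2.4.4), merged and CPM-normalised replicates using SAMtools (1.13), and used MACS2 (2.2.7.1) for peaks. The caller's options and control are not given in the sources used here. The authors deposited for each peak a fold enrichment over local background (a ratio), a p-value and a q-value, each as −log10, and a summit position. The fold ranked regions, and −log10 p and q filtered or ranked peaks. Read depth is unknown.

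Start sites were those of GENCODE release 44. Peaks were merged and overlapped (at least 1 bp) in Python 3.11.15 with NumPy 2.4.6 and SciPy 1.17.1, sequence was read with pysam 0.24.0, and plots used Matplotlib 3.10.9. The functions were tested on simulated data. Shares carry 95% Wilson intervals and differences 95% Newcombe intervals, which treat regions as independent and cover counting error only. No p-value was computed, since each target has 1 pooled list. The GC content is that of the 1 kb around the strongest summit. Where a protein had several peaks in a region, the strongest was used.

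Named regions were the 3 of each class with the highest summed fold enrichment, and the choice of printed sequences left out chromosome 8. Named genes were the 10 with the most triple regions, the 5 with the most Jun-alone regions and no triple region, the 3 members of each gene list with the most triple regions (ties by all regions), and JUN, JUNB and JUND. A named gene and a sequence that these rules chose are not reported here. PLAU, MMP1, MMP3, MMP10, NKX2-1, SOX2, FOXA2 and ESRP1 were named after their values were seen. Classes, gene lists and tests were chosen with earlier results of these data known. Alternatives were a −log10 q of at least 5, lists of equal length, all bins, summits within 100 bp, summits inside marks, bands of Jun enrichment, and other distances and windows. Bands of GC content, bands with at least 20 regions, marks within 1 kb and regions with a protein-coding start within 500 kb were added after the data were seen, as was the comparison of Jun-JunB with Jun-JunD regions.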

Additional observations from a re-analysis of the deposited data

Results flagged for a closer look

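The comparisons left out some peaks of each Jun-family list. In 1-Mb bins with no start site lay 102 Jun, 200 JunB and 1852 JunD peaks, the last being 21.5% of the JunD peaks on chromosomes 1 to 22, X and Y. None of these peaks had the AP-1 motif within 50 bp of its summit. Their median fold enrichment was 3.72 for Jun, 4.59 for JunB and 4.48 for JunD. On other sequences of the assembly lay 103 Jun, 34 JunB and 169 JunD peaks.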

How the results depend on the processing

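No paired analysis was possible because replicates were merged before peaks were called, and for the same reason no replicate could be left out. With a −log10 q of at least 5, triple regions made up 9.22% and Jun-alone regions 78.0%, JunD peaks lay on Jun in 92.5% and on JunB in 69.4%, and 23.2% of genes had a triple region. With lists of equal length the 5 shares, in the order triple, Jun alone, JunB on Jun, JunD on Jun and JunD on JunB, were 29.8%, 15.1%, 62.2%, 64.2% and 59.4%, and 20.6% of genes had a triple region. The differences, triple minus Jun alone, were then -2.73 points for start sites, -0.162 for H3K27ac (reversed), 14.5 for Med1, 21.7 for CTCF, 6.35 for Rad21, 14 for pol II and 49.4 for the AP-1 motif. With all bins the 5 shares were 9.19%, 74.4%, 90.5%, 72.7% and 53.8%. With summits within 100 bp they were 8.94%, 77.0%, 86.1%, 85.6% and 63.1%, and the motif difference was 32.8 points. As means over 5 bands of Jun enrichment the differences were 7.06 points for start sites (reversed), 5.24 for H3K27ac, 48.4 for Med1, 28.5 for CTCF, 20.9 for Rad21, 36.8 for pol II and 11.5 for the motif. Over bands with at least 20 regions they were 3.59 (reversed), 7.99, 45.1, 18.6, 5.75, 43.8 and 23.6 in the same order. The weakest band holds the triple regions far from genes described above. With the summit inside the mark the differences were 0.357 points for H3K27ac, 23.5 for Med1, 46.4 for CTCF, 8.49 for Rad21 and 35.0 for pol II. With marks within 1 kb they were 20.3 for H3K27ac, 44.3 for CTCF and 37.6 for pol II. Start sites within 3 kb gave -2.61 points, GC bands 47.1 points for CTCF, regions over 10 kb from a start 29.2 points for the motif, and genes within 50 kb a share of 13.2%. For Jun-JunB minus Jun-JunD, pol II reversed to -2.02 points over bands of Jun enrichment with at least 20 regions and to -1.33 over GC bands. A further 26 values of that comparison moved beyond their intervals without a change of direction, among them the means over GC bands, at 3.15 points for start sites, 5.86 for H3K27ac, 5.12 for Med1, 13.6 for CTCF and 2.32 for the motif, and pol II over 10 kb from a start, at 0.177. The other 44 values of the main results and 36 of that comparison stayed within their intervals. The causes were not tested. A single pooled list per protein and an unknown depth limit all values, and a missing peak is not an absent protein.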
